A study of Mus musculus with 6 samples.

Results

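The regions described here are short stretches of the mouse genome in which all 4 YAP1 ChIP-seq libraries of the series had a peak. The regions were chosen by the position and width of called peaks, so each had to pass the peak caller's threshold in every library. Peaks of the 4 deposited lists on chromosomes 1 to 19 were chained into merged regions wherever they overlapped by at least 1 bp, and a merged region was kept if every library had a peak in it and it was below 1000 bp. Of 24698 merged regions on these chromosomes, 1980 held a peak of all 4 libraries, and 1697 of those (85.7%) were below 1000 bp. These 1697 narrow shared regions made up 6.87% of all merged autosomal regions and covered 1054 kb.

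All animals carried fSMO-M2 and hGFAPcre, that is, the activated SmoM2 form of the Hedgehog pathway protein Smoothened and a Cre recombinase driven by the human GFAP promoter, which is active in neural precursors. Chromatin came from flash-frozen tissue labelled MB, taken here to be medulloblastoma, the cerebellar tumour this genotype is known for. There were 2 libraries labelled SGf, named as female in their descriptions (SGf Rep.1 and SGf Rep.2), and 2 labelled SGm, named as male (SGm Rep.1 and SGm Rep.2). A separate Sex tag goes against title and description in SGm Rep.1 and SGf Rep.2. By that tag, both Rep.1 libraries are Female and both Rep.2 libraries are Male. The tag and the replicate number thus split the libraries in the same way and cannot be told apart. No group lacks SmoM2 or Cre, no age is given, and no label ties a library to an animal or says that animals were pooled, so the spread between libraries of a group may be technical. The lists hold no expression values, so the labelled tissue could not be checked against marker genes. On chromosomes 1 to 19 the lists held 15855 peaks in SGf Rep.1, 16470 in SGf Rep.2, 4091 in SGm Rep.1 and 9359 in SGm Rep.2. No read counts come with the lists, so depth is unknown.

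YAP1 is the co-activator of transcription that Hippo signalling keeps in check. It has no DNA-binding domain of its own, and it reaches chromatin mainly through TEAD factors, which bind short sequence motifs, often in enhancers far from gene starts. In cerebellar granule neuron precursors, the cells of origin of Hedgehog-driven medulloblastoma, YAP1 is known as a target of Hedgehog signalling that promotes proliferation. A peak's summit is the base at which the peak caller placed the highest signal, so the distance between summits of separate libraries measures how precisely they point to 1 place. Positions are 1-based on mm9. An mm9 genome and annotation were not used here, and each region is therefore given by its coordinates, without genes or sequence.

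The narrow shared regions were wider than the single peaks that built them. Their median width was 602 bp (quartiles 481 and 750, range 256 to 999). Of the 1697, 486 (28.6%) were below 500 bp, 18 were below 300 bp and 127 were 900 bp or wider. Width rose with the number of libraries, as chaining more peaks makes it do: narrow regions held by 1, 2 and 3 libraries had medians of 239, 371 and 496 bp. The narrowest member lay on chromosome 8 from 117115250 to 117115505 (256 bp), where the peaks were 211 bp in SGf Rep.1, 255 bp in SGf Rep.2, 181 bp in SGm Rep.1 and 198 bp in SGm Rep.2. The next were on chromosome 6 from 137683386 to 137683645 (260 bp) and on chromosome 7 from 78091232 to 78091495 (264 bp).

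The limit of 1000 bp falls within a continuous range of widths. Just inside it were 3 regions of 999 bp, on chromosome 12 from 26549440 to 26550438, on chromosome 11 from 113472909 to 113473907 and on chromosome 13 from 48641273 to 48642271. Their summits spanned 59, 214 and 491 bp. Just outside were regions of 1000 bp on chromosome 4 (147661765 to 147662764), 1001 bp on chromosome 2 (128792660 to 128793660) and 1003 bp on chromosome 3 (104442107 to 104443109), with summit spans of 540, 53 and 161 bp. Tight and loose summits thus occurred on either side of the limit.

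Most narrow shared regions were simple: 1555 of 1697 had exactly 1 peak from each library. Another 123 had 5 peaks, and 19 had 6 or more, up to 8. Regions with more than 4 peaks made up 8.37% of the narrow shared regions and 56.5% of the 283 wider ones in all 4 libraries. In 1579 members (93.0%), the strongest peaks of the 4 libraries had bases in common, with a median common stretch of 206 bp (quartiles 172 and 274.5). In 976 members (57.5%), all 4 summits lay inside that stretch. In the other 118, no base lay under the strongest peak of every library. Counting every peak, 33 of these 118 did have a base under all 4 libraries and 85 had none, so that those 85 were joined only by chaining.

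The SGf peaks drew the outline of most members, and SGm Rep.1 had the shortest peak in most. The median peak width over the 1697 members was 473 bp in SGf Rep.1, 467 bp in SGf Rep.2, 256 bp in SGm Rep.1 and 356 bp in SGm Rep.2. Both SGf medians were above both SGm medians, with group means of 470 ± 4.24 bp and 306 ± 70.7 bp (SD, n = 2 each). The SGf to SGm ratio of geometric means was 1.56, with p = 0.333 in a two-sided exact permutation test, the smallest p that its 6 arrangements allow. With groups taken from the Sex tag, which goes against the title in SGf Rep.2 and SGm Rep.1, the ratio was 0.853 (exact permutation p = 1), so the direction turned. Within replicate number 1 the ratio was 1.85 and within number 2 it was 1.31. The limit on region width also caps the width of a member's peaks, so both p-values concern a quantity that the rule itself used. They cannot decide whether the groups differ in peak width. With the limit at 500 bp the SGf to SGm ratio was 1.40. Over all 1980 regions in 4 libraries the SGf to SGm ratio was 1.58, and over the 283 wide ones alone it was 1.94. Over the whole autosomal lists the ratio was 1.18, and over peaks outside the regions of all 4 libraries it was 1.202. Peak width can rise with depth, which is unknown, so its part in the ratio was not tested.

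**Figure D1:**
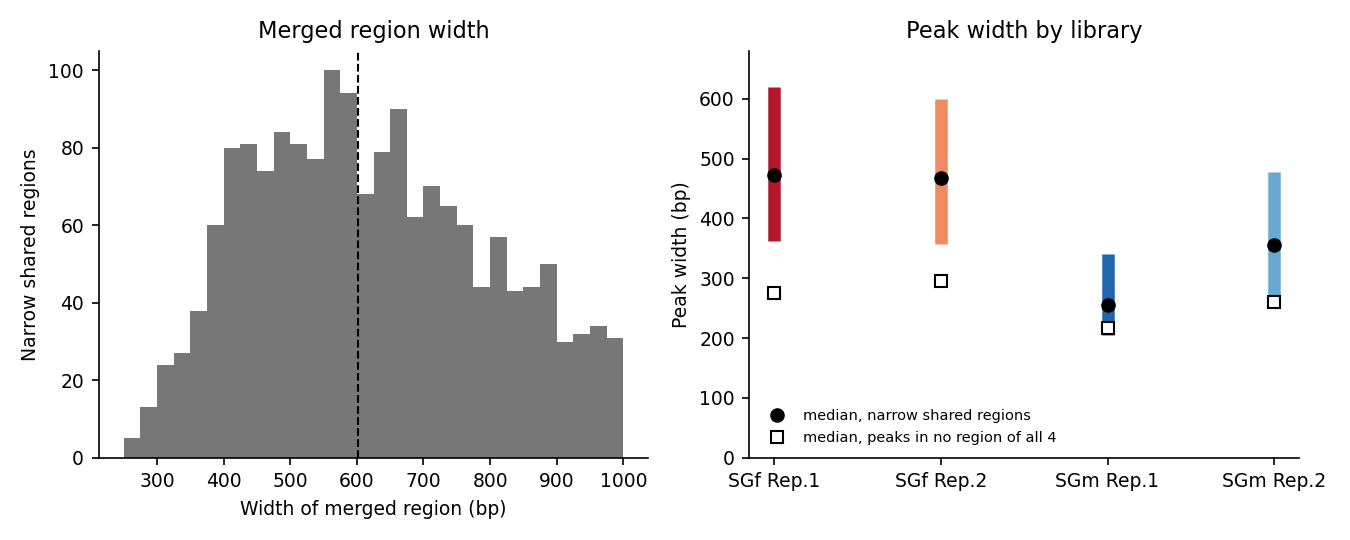
Left, number of narrow shared regions by width in bins of 25 bp, with the median of 602 bp dashed. Right, peak width in bp in each library: bars run from the lower to the upper quartile over the 1697 narrow shared regions, filled circles are their medians (473, 467, 256 and 356 bp), and open squares are medians of peaks in no region of all 4 libraries (276, 296, 217 and 260.5 bp).

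Region by region, the SGf peaks were more often the wider ones. In 909 of the 1697 members (53.6%), both SGf peaks were wider than both SGm peaks, and in 16 (0.943%) the reverse held. Over all 1980 regions in 4 libraries, wide ones included, the shares were 53.9% and 0.909%. Members make up 85.7% of those regions, so their shares and the shares over all are bound to lie close. Grouped by the Sex tag, both peaks tagged Female were wider than both tagged Male in 113 members (6.66%), and the reverse held in 344 (20.3%). Over all 1980 regions those shares were 7.47% and 19.7%. SGm Rep.1 had the narrowest peak in 1154 members (68.0%) and covered a median of 46.3% of the region. SGf Rep.1 and SGf Rep.2 covered 85.3% and 83.9%, and SGm Rep.2 covered 64.5%. The left edge was set by SGf Rep.1 in 727 members and by SGf Rep.2 in 622, against 237 for SGm Rep.2 and 126 for SGm Rep.1. SGf Rep.1 alone reached both edges in 318 members, SGm Rep.1 in 8.

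The 4 summits of a member mostly lay within 200 bp. The rule itself bounds this distance, since it keeps only chained peaks in regions below 1000 bp. The span from the first to the last of the 4 summits had a median of 119 bp (95% interval of the median 114 to 124, quartiles 69 and 209), which was 20.8% of the region's width at the median. All 4 summits fell within 50 bp in 251 members (14.8%), within 100 bp in 705 (41.5%, 95% exact interval 39.2 to 43.9), within 200 bp in 1257 (74.1%) and within 300 bp in 1498 (88.3%). In 32 members the span was over 500 bp. Leaving aside the most distant summit of each region, the 3 tightest summits spanned a median of 49 bp. In 1369 members (80.7%) they fell within 100 bp. That choice is made anew in each region and cannot raise the span. With the same library set aside in all members, 52.1% (without SGf Rep.2) to 58.3% (without SGm Rep.1) fell within 100 bp. The intervals treat regions as independent and cover counting error only.

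Summits were no tighter than peak centres. The midpoints of the 4 peaks spanned a median of 124.5 bp (quartiles 76.5 and 194), and the summits had the smaller span in 842 members (49.6%). Summits sat near the middle of their peaks, at a median of 49.6% of the peak's length in SGf Rep.1, 49.5% in SGf Rep.2, 49.2% in SGm Rep.1 and 49.0% in SGm Rep.2. The quartiles were 37.1% and 61.6% in SGf Rep.1, and 36.4% and 63.7% in SGm Rep.1. No library was shifted along the genome against another: signed median differences between summits ran from -2 to 1 bp over the 6 library pairs.

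Summit distance did not sort the library pairs by group. The median distance between the summits of 2 libraries was 49 bp for the SGf pair and 58 bp for the SGm pair. It was 52 bp for the replicate number 1 pair and 49 bp for the number 2 pair. For the remaining pairs it was 51 bp (SGf Rep.1 and SGm Rep.2) and 57 bp (SGf Rep.2 and SGm Rep.1). The 3 pairs with SGm Rep.1 were at 52, 57 and 58 bp, and the 3 without it at 49, 49 and 51 bp. Summits coincided to the base in 8 to 20 members per pair, and lay within 50 bp in 44.9% (SGm pair) to 50.9% (SGf pair) of members. Pairs share libraries and are too few for a test between kinds of pair.

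**Figure D2:**
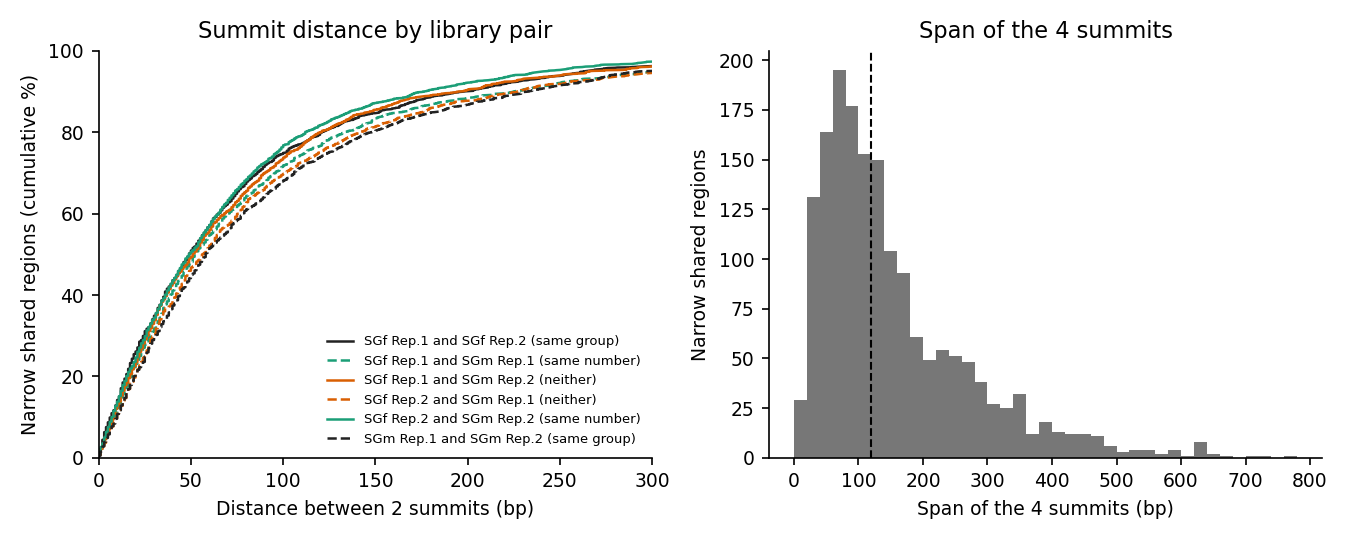
Left, cumulative percentage of the 1697 narrow shared regions by distance in bp between the summits of 2 libraries, 1 line per pair, coloured by whether the pair shares its group, its replicate number or neither, and dashed where SGm Rep.1 is in the pair; the lines lie close, with medians from 49 to 58 bp. Right, number of regions by the span of the 4 summits in bins of 20 bp, with the median of 119 bp dashed.

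SGm Rep.1 had the most deviating summit more often than the other libraries. Its summit was the farthest from the median of the 4 in 547 members (32.2%), against 370 (21.8%) for SGf Rep.1, 399 (23.5%) for SGf Rep.2 and 403 (23.7%) for SGm Rep.2, ties counted for each library. The distance of its summit from the median of the other 3 summits was 49 bp at the median, against 42, 42 and 44 bp for SGf Rep.1, SGf Rep.2 and SGm Rep.2. It also gave the lowest −log10 p of the 4 peaks in 974 members (57.4%). With its summit set aside in the same members, the other 3 spanned a median of 87 bp. Setting aside SGf Rep.1, SGf Rep.2 or SGm Rep.2 gave 96, 96 and 92 bp.

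Summits of the same library pair were slightly closer in the narrow shared regions than in narrow regions of fewer libraries. For the SGf pair the median distance was 49 bp here, 53 bp over 4087 narrow regions of 3 libraries and 59 bp over 2691 narrow regions of this pair alone. For the number 2 pair (SGf Rep.2 and SGm Rep.2) it was 49 bp here, 53 bp over 3667 regions and 53.5 bp over 1602 regions. For the SGm pair it was 58 bp here, 63.5 bp over 174 regions and 73 bp over 23 regions. The other pairs followed the same direction from members to regions of 3 libraries. The rule used these peaks, so the differences are a description. In the 283 wider regions of all 4 libraries, the summits spanned a median of 288 bp (25.5% of the width), and 69 of them (24.4%) had all 4 within 100 bp.

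The span of the summits in bp was smallest in strong and in short members. It cannot exceed the width of a member, so short members leave less room for it. Members were ordered by the lowest −log10 p of their 4 peaks and put into 5 groups of equal size. The strongest group (340 members, 10.3 or more) had a median span of 82 bp, and 61.8% had all summits within 100 bp. The next groups had medians of 108, 130 and 138 bp, and the weakest, at 5.91 or less, had 144 bp with 30.7% within 100 bp. Members below 400 bp had a median span of 74 bp and 68.9% within 100 bp, and those from 900 bp had 182 bp and 22.0%. As a share of the width, the span stayed between 18.6% and 23.7% in all width classes. Members with 1 peak per library spanned 114 bp at the median, and those with more than 4 peaks 258.5 bp.

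**Figure D3:**
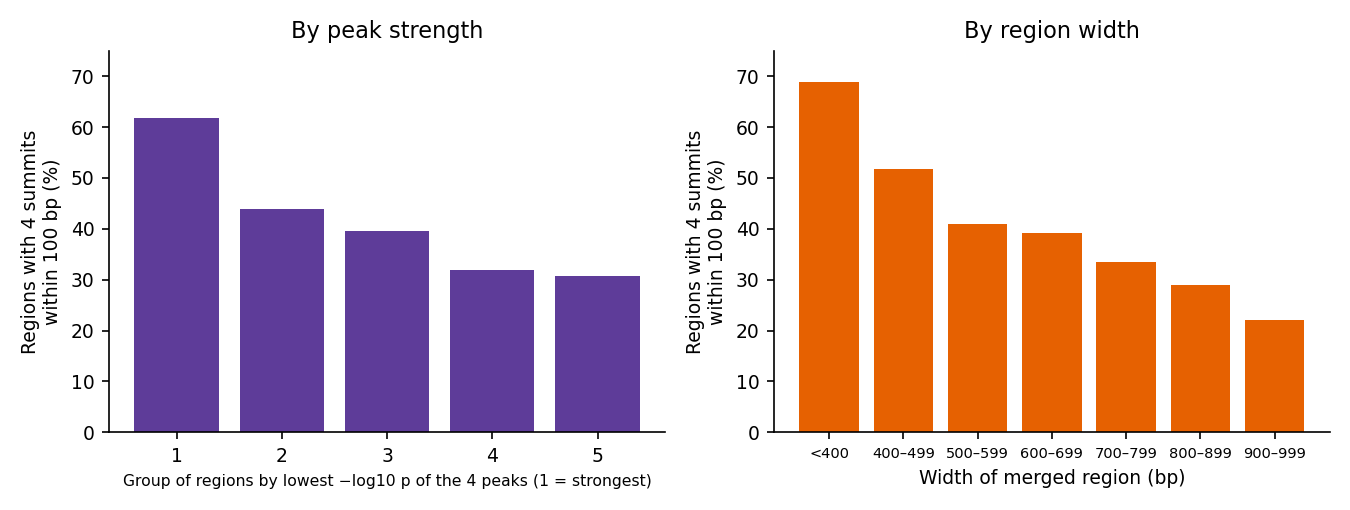
Percentage of narrow shared regions in which the 4 summits fell within 100 bp, by group of the lowest −log10 p of the 4 peaks (left, 5 groups of equal size, 1 the strongest) and by width of the merged region in bp (right). The share fell from 61.8% to 30.7% over the groups and from 68.9% to 22.0% over the width classes.

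The tightest member lay on chromosome 10 from 80893713 to 80893993. Its summits were at 80893838 in SGf Rep.1, SGf Rep.2 and SGm Rep.1 and at 80893835 in SGm Rep.2, a span of 3 bp, and its fold enrichments were 4.58, 4.59, 4.27 and 4.88 in that order. A member on chromosome 2 from 71083372 to 71083907 spanned 6 bp, with summits at 71083701, 71083699, 71083695 and 71083696 in the same order. Next came members on chromosome 7 from 71432064 to 71432812 (7 bp), chromosome 3 from 152059341 to 152059673 (9 bp) and chromosome 1 from 161161792 to 161162521 (9 bp). None of these 5 was among the strongest in every list: the best of them in that respect, on chromosome 3, ranked 1111th in SGf Rep.1, 60th in SGf Rep.2, 570th in SGm Rep.1 and 224th in SGm Rep.2 by fold enrichment.

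In the loosest members, the strongest peaks of the libraries lay side by side more than on top of each other. On chromosome 9 from 21042654 to 21043610, the summits were at 21043364 in SGf Rep.1, 21043367 in SGf Rep.2, 21042775 in SGm Rep.1 and 21043536 in SGm Rep.2, a span of 761 bp. The SGf summits were 3 bp apart there, and SGm Rep.1 stood away from the rest. On chromosome 10 from 79613320 to 79614300 the span was 721 bp, with SGf Rep.2 apart at 79613458 and the other summits from 79613991 to 79614179. On chromosome 9 from 44689441 to 44690347 (716 bp), SGf Rep.2 and SGm Rep.2 had their summits at 44689539 and 44689560, and SGf Rep.1 and SGm Rep.1 at 44690202 and 44690255. The remaining 2 of the 5 loosest were on chromosome 13 from 78342394 to 78343165 (672 bp) and chromosome 9 from 78328648 to 78329520 (657 bp). Of these 5, 4 had no base in common to the strongest peaks of all libraries.

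Peak heights, which the rule did not use directly, covered nearly the whole range of each list. Fold enrichment is the authors' value for a peak, a ratio to an undescribed background, and it was compared within lists. Members had median fold enrichments of 4.36 in SGf Rep.1, 4.30 in SGf Rep.2 and 3.98 in SGm Rep.2, against 3.56, 3.72 and 3.76 for peaks of the same lists in no region of all 4 libraries. In SGm Rep.1 the order was the other way, with 3.55 in members and 3.68 outside. By −log10 p, members were above in all 4 lists. Medians were 14.7 against 8.34 in SGf Rep.1 and 14.2 against 8.91 in SGf Rep.2. In SGm Rep.1 they were 8.95 against 7.59, and in SGm Rep.2 11.8 against 8.80. The rule asks for a called peak in every list, so a higher −log10 p in members is partly built in. Members also count only the strongest peak per library and region, whereas every peak outside is counted.

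The rule puts at least 1 peak of every library in each member, so the lists held similar numbers of peaks in the narrow shared regions, from 1727 to 1748, and the share of a list follows from its length. That share was 42.4% (95% exact interval 40.9 to 44.0) of the peaks of SGm Rep.1, 18.6% (17.9 to 19.4) of SGm Rep.2, 11.0% (10.5 to 11.5) of SGf Rep.1 and 10.5% (10.02 to 11.0) of SGf Rep.2. Of the 4261 narrow regions in exactly 3 libraries, 3589 (84.2%) lacked only SGm Rep.1. Of the remaining ones, 498 lacked SGm Rep.2, 96 lacked SGf Rep.2 and 78 lacked SGf Rep.1. Without SGm Rep.1, 5298 narrow regions were shared by the other 3 libraries. The number also depended on the threshold, with 596 at a −log10 q of at least 5 and 635 when all lists were trimmed to 4155 peaks, the strongest by p-value.

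Few members were among the strongest peaks of every list. Within the first 100 peaks by fold enrichment of every list there were 7 members. Within the first 250 there were 21, and within the first 500 there were 32. Of the 283 wider regions of all 4 libraries, 9, 21 and 26 lay within the same limits, a larger part of a smaller set. A fixed rank reaches deeper into the SGm Rep.1 list (4155 peaks) than into that of SGf Rep.2 (16769 peaks). The leading 3 members lay on chromosome 14 from 64224528 to 64225294, chromosome 11 from 95895571 to 95896507 and chromosome 10 from 79131617 to 79132578. They had summit spans of 17, 50 and 182 bp. In the first of these, 1 stretch of 565 bp lay under all 4 peaks, the whole peak of SGm Rep.1. In the third, the SGm Rep.1 summit (79132223) stood apart from those of the other libraries (79132041 to 79132059).

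The next strongest members differed in how they ranked across libraries. On chromosome 9 from 118055322 to 118056291 the fold enrichments were 11.0 in SGf Rep.1, 19.02 in SGf Rep.2, 6.29 in SGm Rep.1 and 9.30 in SGm Rep.2, with a summit span of 106 bp. A shorter member on the same chromosome, from 108092642 to 108093051 (410 bp), had 11.2, 8.91, 7.501 and 8.27 in the same order and a span of 33 bp, and 2 of its summits coincided at 108092801 in the SGf libraries. On chromosome 1 from 151526689 to 151527250 the values were 8.58, 26.4, 6.89 and 24.2. There the region ranked 1st in SGm Rep.2 and 2nd in SGf Rep.2, but 94th in SGf Rep.1 and 51st in SGm Rep.1, so both libraries of number 2 had it at the top. Libraries of a number carry a shared code in their descriptions and the same Sex tag. What the code stands for is not given, and the part of code or tag was not tested.

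The other 4 of the 10 best-ranked members had summit spans from 39 to 63 bp. They lay on chromosome 16 from 87354214 to 87354810, chromosome 8 from 73397193 to 73398011, chromosome 18 from 10610111 to 10610534 and chromosome 14 from 73924620 to 73925381. The chromosome 16 member had 10.3, 9.45, 7.64 and 7.46-fold enrichment in SGf Rep.1, SGf Rep.2, SGm Rep.1 and SGm Rep.2. The chromosome 8 member had 8.35, 10.9, 6.27 and 8.95. On chromosome 18 the values were 11.8, 11.3, 5.845 and 11.5, and SGm Rep.1 had the lowest rank, 129th. On chromosome 14 they were 7.77, 16.1, 5.91 and 9.30, with SGf Rep.2 highest.

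Most narrow shared regions had no other within 100 kb. Gaps are given from edge to edge. The median distance of a member to the nearest other member was 231759 bp (95% interval of the median 209855 to 254063). Another member lay within 10 kb for 122 members (7.19%, 95% exact interval 6.01 to 8.52), within 100 kb for 541 (31.9%) and within 1000 kb for 1419 (83.6%). The remaining 278 (16.4%) had none within 1000 kb. Such distances depend on how many regions a class holds. Narrow regions of 1, 2 and 3 libraries were more numerous (12937, 5343 and 4261). Their median distances to the nearest of the same class were 23994, 69948 and 76231 bp. Another of the same class lay within 10 kb for 35.2%, 16.7% and 15.7% of them. Whether members lay closer or farther apart than their number implies was not tested. The most isolated member, on chromosome 1 from 121799107 to 121799610, was 13277989 bp from the next, followed by members on chromosome 16 from 64851289 to 64852052 (12569689 bp) and chromosome 5 from 53540234 to 53540872 (8996907 bp). Without SGm Rep.1, 18.2% of the regions shared by the other 3 libraries had another within 10 kb and the median distance was 62446 bp; at a −log10 q of at least 5 it was 791273 bp, and with lists of equal length by p-value it was 685209 bp.

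Merged regions of any kind were found near narrow shared regions about as often as near other narrow regions. The nearest merged region of any kind lay within 10 kb of 806 members (47.5%), and of 51.4%, 49.9% and 49.8% of the narrow regions held by 1, 2 and 3 libraries. Within 1 kb the share was 26.3% for members and 27.6%, 26.2% and 27.0% for those classes. The median number of other merged regions within 100 kb of the centre was 4 in each of these classes, and 119 members (7.01%) had none. A wide region of all 4 libraries lay within 100 kb of 10.1% of members, against 6.38%, 5.78% and 7.53% of narrow regions in 1, 2 and 3 libraries. No test was made of these shares, since the classes come from the same peaks.

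Of the 1678 gaps between successive members, 25 were below 1 kb and 50 were from 1 to 10 kb. The larger gaps were 247 from 10 to 100 kb, 783 from 100 to 1000 kb and 573 above that, 28 of them over 10 Mb. The closest pair lay on chromosome 11, where a member from 78001818 to 78002524 was followed after 75 bp by one from 78002600 to 78003249, with median summits 721.5 bp apart. Pairs on chromosome 6 followed, with gaps of 112 bp (128710039 to 128710581 and 128710694 to 128711283) and 114 bp (72388714 to 72389577 and 72389692 to 72390397), and median summits 517.5 and 704 bp apart. No 2 members had median summits closer than 517.5 bp. The 50 members with a neighbour under 1 kb away had a median summit span of 111.5 bp, against 119 bp for the other 1647. Of the 25 gaps below 1 kb, 10 lay in the chains on chromosome 6 described below, whose 26 members had a median span of 64.5 bp.

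**Figure D4:**
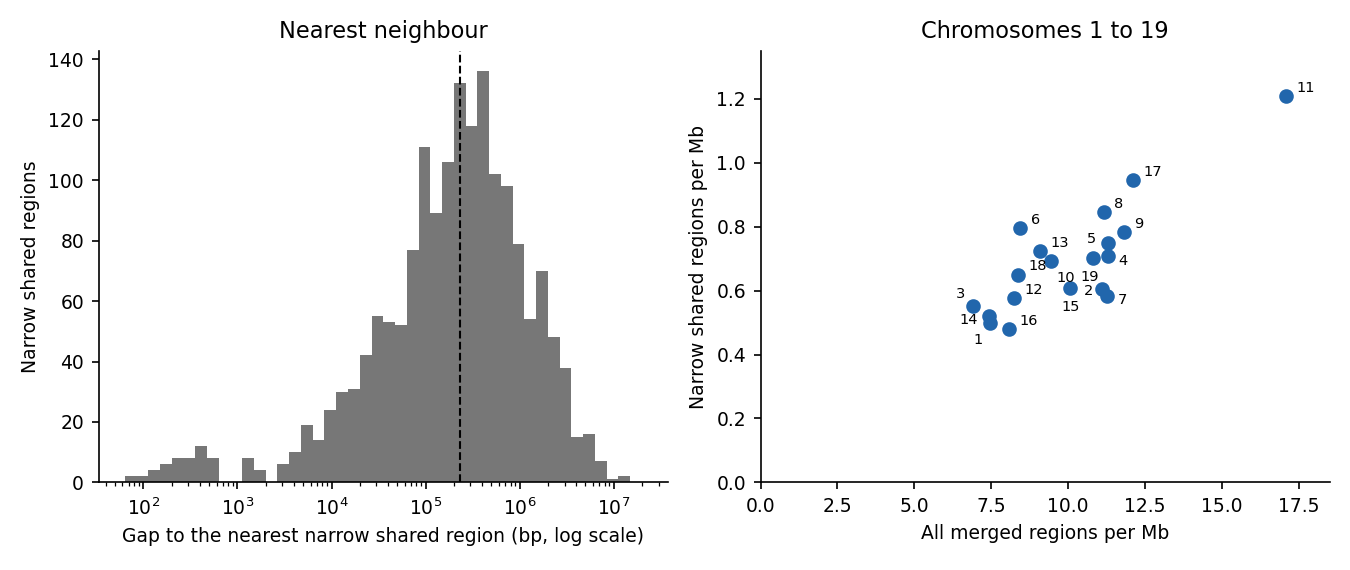
Left, number of narrow shared regions by the gap to the nearest other one, in bp on a log axis, with the median of 231759 bp dashed; a small separate group lies below 1 kb. Right, narrow shared regions per Mb against all merged regions per Mb, 1 point for each of chromosomes 1 to 19, where chromosome 11 is highest on both axes at 1.21 and 17.1.

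Density followed that of all peaks along the chromosomes. Over the 19 autosomes there were 0.687 members per Mb, with the last peak end taken as the length of a chromosome. Chromosome 11 had the most, 147 members or 1.21 per Mb, and also the most merged regions, 17.1 per Mb. Chromosome 17 (0.945) and chromosome 8 (0.846) followed, and chromosomes 16 (0.479) and 1 (0.498) were lowest. Members made up between 5.18% (chromosome 7) and 9.44% (chromosome 6) of a chromosome's merged regions, and 7.07% on chromosome 11. Of the 119 members on chromosome 6, 26 lay in 2 neighbouring chains that are described below, and they raise its share. Of 2479 windows of 1 Mb, 933 (37.6%) held a member, 525 of these just 1, and 40 held 5 or more, with 270 members (15.9%) among them. The fullest windows were 47 to 48 Mb on chromosome 6 with 27 members of 54 merged regions, and 79 to 80 Mb on chromosome 10 with 11 of 106.

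Most members were in no chain. Linking members with gaps of at most 10 kb left 1575 of them alone and put 122 into 47 chains. Of these, 40 chains had 2 members, 4 had 3 members, 1 had 4 members and 2 had 13 members each. The chain of 4 covered 11954 bp on chromosome 11 from 77991296 to 78003249. Its members had summit spans from 69 to 161 bp, and the second, from 77996565 to 77997303, had fold enrichments of 3.37 in SGf Rep.1, 6.32 in SGf Rep.2, 3.67 in SGm Rep.1 and 6.66 in SGm Rep.2. The 2 most compact chains of 3 lay on chromosome 14 from 122864144 to 122874444 and on chromosome 7 from 134160241 to 134171402, with spans from 35 to 331 bp and from 121 to 217 bp.

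The 2 chains of 13 lay next to each other on chromosome 6 and had a regular layout. The first ran from 47604834 to 47636492 and the second from 47689642 to 47723178, with 53149 bp between them. In each, members fell into 8 stops, some of them a close pair, where members with median summits at most 1500 bp apart count as 1 stop, a limit set after the spacing was seen. No distance between neighbouring median summits lay between that limit and 3646 bp in the first chain or 3290 bp in the second. From stop to stop, the leading summits of the first chain were 4285.5 to 4370.5 bp apart (median 4326). In the second chain the steps were 4232.5 to 5553 bp (median 4375.5). Each chain had 5 close pairs, with median summits 635 to 654.5 bp apart in the first and 590 to 1042 bp in the second. These pairs made up 10 of the 25 gaps below 1 kb.

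Array members were low by fold enrichment and high by p-value. The median fold enrichment of the 26 was 2.85 in SGf Rep.1, 2.48 in SGf Rep.2, 2.56 in SGm Rep.1 and 2.68 in SGm Rep.2, below the medians of the other members in each list (4.41, 4.32, 3.55 and 4.01). Their median −log10 p was 22.2, 18.9, 16.7 and 22.0 in the same order, above 14.6, 14.1, 8.92 and 11.6 in the others. The 4 summits spanned a median of 64.5 bp in the array and 121 bp in the other 1671 members. All summits fell within 100 bp in 19 of the 26 (73.1%), against 41.1% of the others, and 9 of the 35 members with a span of at most 20 bp were in the array. Without the array, 96 members (5.75%) had another within 10 kb. Over all members, the strongest of the 5 groups by lowest −log10 p had a median span of 82 bp, with 61.8% within 100 bp. Array and other members of like strength were not compared. The array was singled out after its spacing was seen, so its differences from the other members are a description.

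**Figure D5:**
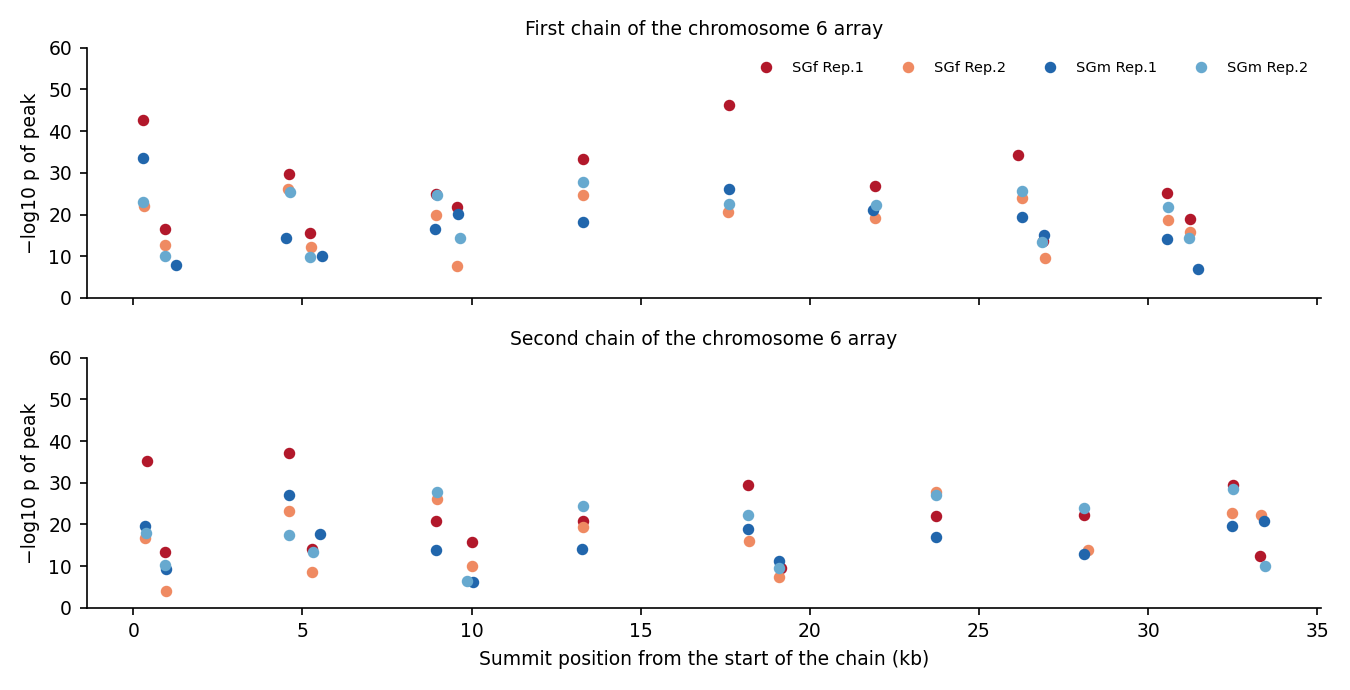
Summits of the 26 narrow shared regions in the 2 chains of the chromosome 6 array, by distance in kb from the start of the chain (horizontal) and −log10 p of the peak (vertical), 1 point per region and library, coloured by library. Summits of the 4 libraries stack at 8 stops per chain, with median steps of 4326 and 4375.5 bp.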

How the data were processed

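Per the labels' protocols, a company ran the YAP1 ChIP-seq. The submitters' processing notes name BWA, HOMER 4.11 and mm9 without roles. For the peak caller, its settings and its control, nothing is given in the sources used here. The 2 pooled inputs were not analysed here, and if each served as control for libraries of its number, those would share it. Per library, the authors deposited 1 narrowPeak list with, for each peak, a fold enrichment (ratio), the summit, a score, and p-values and q-values as −log10. Depth is not given, so precision is limited by the number of libraries.

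Groups came from the titles. Replicate numbers pair libraries by a shared code in the descriptions. Across the 1697 members, deviations from the group means of same-numbered libraries had Pearson's r of 0.43 for log2 fold enrichment and 0.23 for log2 peak width, with no test. Where a library had several peaks in a region, the one with the highest −log10 p gave summit, width and fold. Shares have 95% Clopper-Pearson intervals and medians order-statistic intervals. The members, and the lists and rules, were chosen with earlier results of these data known. Regions were named as follows: the 10 best by worst rank by fold over the 4 lists, the 5 smallest and 5 largest summit spans, the 3 narrowest and 3 widest members, the 3 regions just over the limit, the 5 fullest chains, the 3 closest pairs and the 3 most isolated members. The difference between SGf and SGm was tested only for peak width, by an exact permutation test. Members were also chosen by width, so the result cannot decide whether the groups differ. Merging, spans and gaps were tested on simulated data. Alternatives were a stricter q-value, equal list length, 50% overlap, other limits, each library left out, Sex tag groups, the replicate block and, added after seeing the data, no array and Sex tag groups for the count of wider peaks. Computation used Python 3.11.15 (scipy 1.17.1, numpy 2.4.6, pandas 2.3.3, matplotlib 3.10.9).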

Additional observations from a re-analysis of the deposited data

Results flagged for a closer look

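Chromosome X lay outside the rule, which took chromosomes 1 to 19, and it held narrow regions of the same kind. There were 8 regions below 1000 bp with a peak from all 4 libraries among 460 merged regions on X (1.74%, 95% exact interval 0.754 to 3.398), against 6.87% of the merged regions on chromosomes 1 to 19. Their widths ran from 332 to 678 bp, and their 4 summits spanned 54 to 224 bp, with a median of 133 bp.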

How the results depend on the processing

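The results considered are the number of narrow shared regions, the median summit span, the share with summits within 100 bp, the share with another within 10 kb, the median gap, the median width and the SGf to SGm ratio of peak width. At a −log10 q of at least 5 the first 6 were 596, 94.5 bp, 54.2%, 5.70%, 791273 bp and 638.5 bp, and at equal list length by p-value 635, 88 bp, 57.5%, 5.98%, 685209 bp and 638 bp. With a limit of 500 bp they were 486, 89 bp, 57.6%, 2.47%, 1022108 bp and 423 bp. Fewer peaks or regions enter each of these. Joining peaks only at an overlap of at least 50% of both gave a span of 101 bp, 49.6% within 100 bp, a gap of 338780 bp and a width of 553.5 bp. No width limit gave 128 bp, 39.1%, 9.34% within 10 kb, 199428.5 bp and 650.5 bp. With each library left out, the number ran from 1884 to 5298 (the latter without SGm Rep.1), the span of 3 summits from 89 to 98 bp, the share within 100 bp from 51.2% to 55.8%, that within 10 kb from 8.66% to 18.2%, the gap from 62446 to 202932 bp, the width from 530 to 563 bp and the ratio from 1.25 to 1.76. Summits within 50 or 200 bp gave 14.8% and 74.1%, and another member within 5 or 50 kb 4.83% and 21.4%. Without the chromosome 6 array, 5.75% had another within 10 kb. The ratio of peak width stayed above 1 in all of these. With groups from the Sex tag it was 0.853 (exact permutation p = 1), and both peaks tagged Female were the wider ones in 113 members, against 909 for SGf by title. With the replicate block, pairing by number, it was 1.56 (exact sign-flip p = 0.5, the smallest that 2 pairs allow), and no call changed. The rule bounds the peak widths of members, so neither p decides whether the groups differ. Of the 1697 members, 587 (34.6%) overlapped a member at the stricter q-value, 628 (37.0%) one at equal list length and 1182 (69.7%) one at 50% overlap. The cause of these changes was not tested.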

Other observations

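Peak heights within the narrow shared regions ranked most alike in libraries of the same replicate number. Spearman's rho of fold enrichment across the 1697 members was 0.56 for SGf Rep.2 and SGm Rep.2 and 0.49 for SGf Rep.1 and SGm Rep.1. It was 0.33 for the SGf pair, 0.18 for the SGm pair, 0.24 for SGf Rep.1 with SGm Rep.2 and 0.20 for SGf Rep.2 with SGm Rep.1. Peak widths had rho of 0.49 and 0.32 in the number pairs, 0.38 in the SGf pair and 0.18 in the SGm pair. Members are not independent replicates, and no test was made. Libraries of a number share a code and also the Sex tag (Female in Rep.1, Male in Rep.2). Replicate number and tagged sex therefore cannot be told apart here.

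In SGm Rep.1, fold enrichment did not order peaks by membership. Narrow shared regions held 45.4% of the 10% of its autosomal peaks with the highest fold and 58.2% of the 10% with the lowest. In SGf Rep.1 the shares were 34.6% and 5.87%, in SGf Rep.2 24.8% and 7.16%, and in SGm Rep.2 33.9% and 20.9%. By −log10 p the order held in SGm Rep.1 as well, with 64.4% of the highest 10% and 38.1% of the lowest.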
